A study of Mus musculus with 6 samples.

Results

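The genes described here encode the complement and coagulation proteins that liver releases into plasma, together with the inhibitors that restrain both cascades. They were chosen from a fixed list of 43 gene symbols, 20 of complement and 23 of coagulation and inhibitors, by taking every probe set annotated to exactly 1 listed symbol. This gave 55 probe sets for 39 genes, 17 of complement and 22 of coagulation and inhibitors, out of 18193 genes on the array. C1s was found under its present symbol, C1s1. For C3, Cfd and Cpb2 no probe set was matched, and C4b had only a probe set shared with C4a, so these 4 genes were not analysed here.

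Liver RNA came from 6 male BALB/cCrSlc mice, an inbred albino strain, 17 weeks old. For 10 weeks they ate an AIN-93M-based purified low-protein diet, either 10C with 10% casein (3 mice) or 6C+4CP with 6% casein and 4% fish collagen peptide (3 mice). Each diet had been given to 12 mice, and the 3 analysed were picked for medium food efficiency (weight gain per food intake). Casein and collagen peptide changed together, so the lower casein and the added peptide cannot be told apart. Mice were sampled in the morning after 3 h of starvation, and each gave 1 Affymetrix array, so the replicates are separate animals.

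Complement is a chain of plasma proteases and binding proteins that tags microbes and damaged cells and can lyse them. It is started by antibody (the classical pathway), by sugars (the lectin pathway) or by spontaneous turnover of C3 (the alternative pathway), and all routes end in a membrane attack complex. Coagulation is a second protease chain, ending in thrombin, which turns fibrinogen into fibrin, and serpins, the protein C system and plasmin limit it. Hepatocytes make most proteins of both systems, and several of them rise in the acute phase response to inflammation.

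The deposited values behave as logarithms and were read as log2, a base that the sources used here do not give. Medians over all probe sets lay between 6.306 and 6.308 on the 6 arrays. Most probe sets carried 1 value shared by all mice: 7791 of 45037 (17.3%) ranged over more than 0.01. A gene without such variation says nothing about whether its level differed between mice. Among the members 34 of 55 probe sets varied, and the nearest ranges on either side of 0.01 were 0.000329 (a probe set of Clu) and 0.0447 (C1s). Each gene is represented below by its probe set with the highest mean, by which 26 of 39 members varied (66.7%, against 22.4% of all genes). Varying values were more common at high means: among genes with a mean of 10 or more the share was 67.7% of 31 members and 76.7% of 850 genes. The 13 members with a shared value were C8g, Cfi, Masp1, Masp2, F2, F9, F12, Fga, Proc, Pros1, Serpinc1, Klkb1 and Clu. Of these Clu had further probe sets that varied, and for the other 12 no diet difference can be read.

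Livers of mice fed 6C+4CP mostly had slightly lower values of complement and coagulation genes than livers of mice fed 10C. Of the 26 varying members 22 were lower and 4 higher (Hc, Mbl1, F5 and Vtn), with a median difference of -0.10 in log2. Of all 4074 genes whose brightest probe set varied, 52.0% were lower, and their median was -0.0051. Among varying genes with a mean of 10 or more the contrast was smaller. There the median was -0.057 in 21 members (81.0% lower) and -0.015 in 652 genes (53.8% lower). The widest differences were those of C6, a terminal complement component (-0.71, SE 0.38), Mbl2, a mannose-binding lectin (-0.48, SE 0.089), and F7, the clotting factor of the tissue factor pathway (-0.35, SE 0.14). In 7 members no mouse of one diet reached into the range of the other diet: Mbl2, C1s, F7, F10, Serpind1 and Serpinf2 were lower in 6C+4CP and Mbl1 was higher. Lower without overlap were thus 6 of 26 members (23.1%, against 9.52% of all varying genes), and higher without overlap 1 of 26 (3.85%, against 11.8%). After quantile normalization C1s and F10 overlapped, which left 4 lower (15.4%, against 9.72%). In the deposited values with a mean of 10 or more, 5 of 21 members and 84 of 652 genes were lower without overlap. Higher without overlap were 1 of 21 and 81 of 652.

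No member passed the test between the diets. Limma, fitted to all 45037 probe sets with Benjamini-Hochberg adjustment, called 0 of 55 member probe sets at an adjusted p under 0.05, against 109 probe sets in all (0.242%), of which 103 held a value shared by all mice within 0.01. The smallest limma adjusted p of a varying member was 0.501 (Mbl2). By limma 4 of the 26 varying members had an unadjusted p under 0.05, a similar share to the 559 of 4074 varying genes. Fitted to the 7791 varying probe sets alone, limma called 0 (0.0%), with 1140 at an unadjusted p under 0.05. Of the 34 varying member probe sets 5 were among these, again a similar share. The smallest adjusted p of a member in this fit was 0.117 (Mbl2). Without 10C replicate 1 the members lower without overlap numbered 12, as C1ra, C6, C8a, C8b, C9 and Plg joined, against 15.3% of all varying genes.

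**Figure D1:**
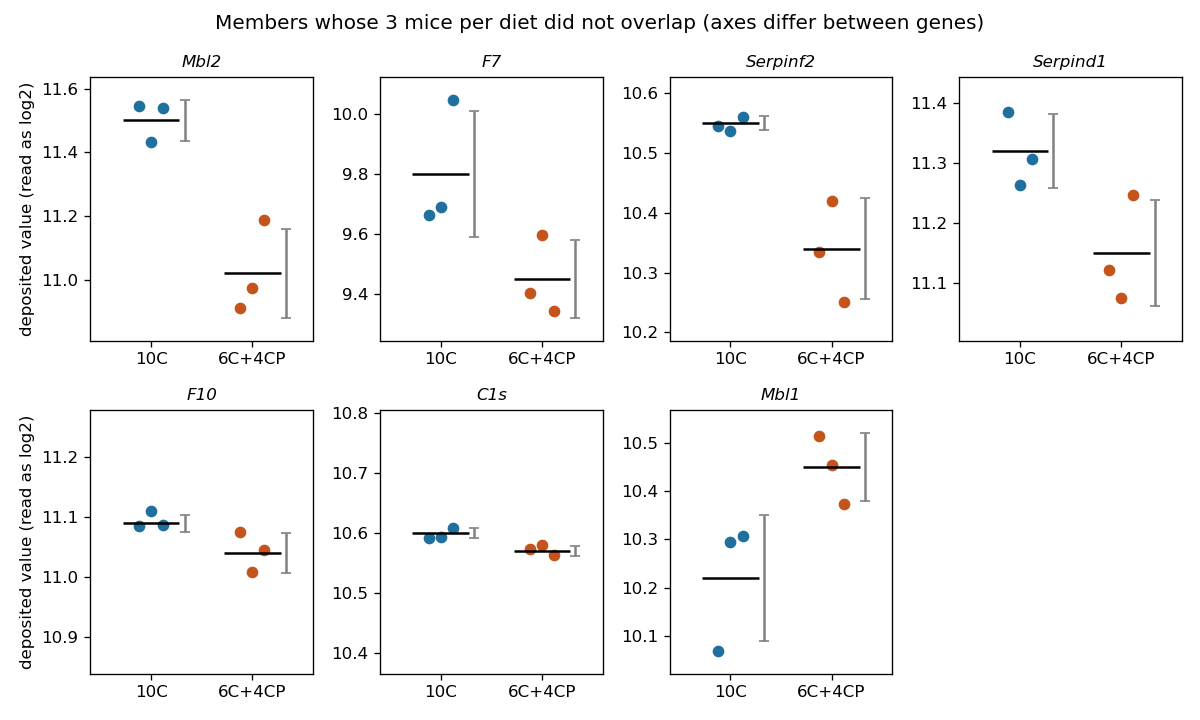
Deposited values, read as log2, of the 7 members whose 3 mice per diet did not overlap, 1 panel per gene with its own vertical axis. Points are single mice, horizontal lines are means and grey bars are 1 SD either side of the mean (n = 3); Mbl2 shows the widest gap, with all 10C mice at 11.43 or above and all 6C+4CP mice at 11.19 or below, and Mbl1 the opposite direction.

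In the lectin pathway the mannose-binding lectins went opposite ways. Mbl1 and Mbl2 encode related serum lectins that bind sugars on microbes and activate the MASP proteases. Mbl2 (probe set 1418787_at) read 11.55, 11.43 and 11.54 on 10C but 10.91, 10.97 and 11.19 on 6C+4CP. All 10C mice were above all 6C+4CP mice, with means of 11.50 ± 0.064 (SD, n = 3) and 11.02 ± 0.14. The difference was -0.48 (95% interval -0.73 to -0.24), or 1.40 times lower (limma adjusted p = 0.501, or 0.117 among varying probe sets). Without any 1 mouse it lay between -0.56 and -0.43. Mbl1 (1419578_at) read 10.07, 10.29 and 10.31 in 10C and 10.51, 10.45 and 10.37 in 6C+4CP, so here the 6C+4CP mice were the higher ones. Its difference was 0.22 (95% interval -0.010 to 0.46), or 1.17 times higher, with an adjusted p by limma of 0.704. It lay between 0.15 and 0.26 without any 1 mouse. Masp1 and Masp2, the proteases that these lectins activate, held shared values, 10.33 and 8.84, in every mouse.

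Because the lectin pair differed in opposite directions, the 250 bases before their transcription starts are shown, from RefSeq on build GRCm38.p6. Capitals mark the longest run the windows share, 13 bases, which lies 23 to 11 bases before the start of Mbl1 (chr14:41151206-41151455, plus strand) and 57 to 45 bases before that of Mbl2 (chr19:30232678-30232927, plus strand).
Mbl1: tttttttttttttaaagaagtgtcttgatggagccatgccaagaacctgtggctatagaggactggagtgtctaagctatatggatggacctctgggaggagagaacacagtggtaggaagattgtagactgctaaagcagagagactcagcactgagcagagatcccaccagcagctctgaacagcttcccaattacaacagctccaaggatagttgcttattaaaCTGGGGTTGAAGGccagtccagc
Mbl2: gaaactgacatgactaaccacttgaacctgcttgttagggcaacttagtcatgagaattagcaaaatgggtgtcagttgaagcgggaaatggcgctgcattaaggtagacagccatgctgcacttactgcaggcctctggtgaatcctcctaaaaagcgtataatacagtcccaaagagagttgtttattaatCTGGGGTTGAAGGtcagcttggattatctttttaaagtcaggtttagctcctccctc
Among the 528 pairs of 33 listed genes with a promoter in the table, the median longest shared run was 8 bases and 3 pairs reached 13. The other 2 of those pairs, C9 with Klkb1 and C9 with Mbl1, shared mostly runs of T.

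The terminal components assemble into the membrane attack complex, and C6 and C8b had the widest ranges over the 6 mice among them, 1.55 and 0.93. C6, which joins the complex after C5, read 9.45, 10.39 and 10.30 in 10C and 9.53, 9.64 and 8.84 in 6C+4CP. The diets overlapped through 10C replicate 1, and the means were 10.05 ± 0.51 (SD, n = 3) and 9.34 ± 0.43. The difference of -0.71 had a 95% interval of -1.76 to 0.33, by limma with an adjusted p of 0.766, and it ran from -1.01 without 10C replicate 1 up to -0.46 without 6C+4CP replicate 3. C8b, the beta chain of C8, read 10.10, 11.03 and 10.86 in 10C and 10.49, 10.45 and 10.15 in 6C+4CP. Its difference was -0.30 (SE 0.30), which became -0.59 without 10C replicate 1 and -0.12 without 10C replicate 2. C8a, the alpha chain, read 11.74, 12.17 and 12.24 in 10C and 11.88, 12.15 and 11.63 in 6C+4CP, which differed by -0.16 (SE 0.21). Leaving out 10C replicate 1 gave -0.32, and leaving out 6C+4CP replicate 3 gave -0.033. Both C8 chains overlapped between the diets, and 10C replicate 1 lay within the 6C+4CP mice for C8a and below all of them for C8b. C9, which forms the pore, read 12.40, 12.65 and 12.75 in 10C and 12.47, 12.55 and 12.21 in 6C+4CP. It overlapped as well and differed by -0.19 (SE 0.14), from -0.29 without 10C replicate 1 to -0.092 without 6C+4CP replicate 3. Hc, the gene of C5, differed by 0.036 (SE 0.089; 95% interval -0.21 to 0.28). C8g, the gamma chain of C8, held a shared value of 12.10.

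Within each diet the same mouse was lowest in all 5 varying terminal components, and this was not confined to them. Among 10C mice replicate 1 was the lowest in 5 of 5 (33.7% of all varying genes), and among 6C+4CP mice replicate 3 in 5 of 5 (34.4%). Over all varying complement members these mice were the lowest in 10 of 13 and 8 of 13, C1ra, C1s and Mbl1 among both counts. The median deviation of these 5 genes from their mean over 6 mice was -0.23, 0.20 and 0.27 in 10C replicates 1 to 3 and -0.037, 0.043 and -0.34 in 6C+4CP replicates 1 to 3. Over all varying genes these medians lay between -0.017 and 0.019. This pattern was noticed in the values and is given as a description, with no test.

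The windows of 250 bases before the starts of C6 (chr15:4726960-4727209, plus), C8a (chr4:104876399-104876648, minus), C8b (chr4:104766067-104766316, plus), C9 (chr15:6445096-6445345, plus) and Hc (chr2:35061413-35061662, minus) are printed because these 5 terminal components shared that pattern over mice. Sequences are RefSeq's on GRCm38.p6. Capitals mark matches to elements of liver factors (for HNF1 only part of its site) or to the TATA element, searched on both strands.
C6: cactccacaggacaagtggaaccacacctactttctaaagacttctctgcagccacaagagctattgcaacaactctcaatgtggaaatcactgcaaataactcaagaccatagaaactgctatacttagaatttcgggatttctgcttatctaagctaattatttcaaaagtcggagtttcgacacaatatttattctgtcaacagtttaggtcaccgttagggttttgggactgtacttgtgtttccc
C8a: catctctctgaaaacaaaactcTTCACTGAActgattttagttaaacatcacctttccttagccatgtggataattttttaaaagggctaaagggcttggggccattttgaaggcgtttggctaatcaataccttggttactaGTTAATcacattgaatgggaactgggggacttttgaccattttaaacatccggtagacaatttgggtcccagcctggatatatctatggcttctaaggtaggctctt
C8b: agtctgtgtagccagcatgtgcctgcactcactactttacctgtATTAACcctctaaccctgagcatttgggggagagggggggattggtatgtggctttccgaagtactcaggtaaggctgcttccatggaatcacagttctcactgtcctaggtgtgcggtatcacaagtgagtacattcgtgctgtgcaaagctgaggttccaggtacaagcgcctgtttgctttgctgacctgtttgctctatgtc
C9: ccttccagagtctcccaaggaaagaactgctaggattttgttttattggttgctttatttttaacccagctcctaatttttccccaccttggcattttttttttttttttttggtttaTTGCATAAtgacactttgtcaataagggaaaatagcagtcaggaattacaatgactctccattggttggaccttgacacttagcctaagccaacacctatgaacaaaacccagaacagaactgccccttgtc
Hc: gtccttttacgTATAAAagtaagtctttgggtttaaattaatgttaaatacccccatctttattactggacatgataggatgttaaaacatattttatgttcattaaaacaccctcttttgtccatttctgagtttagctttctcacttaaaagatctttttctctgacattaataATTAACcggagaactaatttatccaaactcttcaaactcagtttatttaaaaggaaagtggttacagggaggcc
C8a held a STAT element, TTCNNNGAA, 228 to 220 bases before its start. It also held GTTAAT, which is only part of an HNF1 site, 107 to 102 bases before its start. C8b held this partial HNF1 site as ATTAAC on the other strand, 206 to 201 bases before its start. C9 held a C/EBP element, TTGCNNAA, 132 to 125 bases before its start, and C6 held none of the letters searched. Hc held the partial HNF1 site as ATTAAC 74 to 69 bases before its start. The TATA element lay 239 to 234 bases before the start of Hc. The partial HNF1 site occurred in windows of 10 of the 33 listed genes with a promoter in the table (30.3%). It occurred in 6.43% of all 32851 promoters. The C/EBP element occurred in 8 of 33 (24.2%, against 9.56%), the STAT element in 6 (18.2%, against 7.02%), the FOXA element TGTTTAC in 2 (6.06%, against 3.17%) and the TATA element TATAAA in 3 (9.09%, against 12.4%). The HNF4 element CAAAGTCCA was in 0 of 33 and in 0.384% of all. Matches are descriptions of the letters and not binding sites.

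The remaining complement genes that varied differed by between -0.12 and -0.025 on their brightest probe sets. C1ra, a protease of the first classical component, read 10.20, 10.35 and 10.35 in 10C and 10.16, 10.32 and 10.07 in 6C+4CP, which overlapped. Its difference was -0.12 (SE 0.089), from -0.19 without 6C+4CP replicate 2 to -0.061 without 6C+4CP replicate 3. C1s, its partner protease (1424041_s_at), read 10.591, 10.593 and 10.608 in 10C and 10.574, 10.580 and 10.563 in 6C+4CP. The mice of both diets lay apart, but the difference was only -0.025 (SE 0.0072; limma adjusted p = 0.64), or -0.013 after quantile normalization, and among varying probe sets its adjusted p was 0.78. C2, the protease that joins C4b in the classical convertase, differed by -0.12 (SE 0.28) and ranged over 0.80 between mice, and its other 2 probe sets differed by -0.13 and -0.013. Cfb, the alternative pathway protease, differed by -0.054 (SE 0.078) and C4bp, which binds and disarms C4b, by -0.057 (SE 0.083). Cfp encodes properdin, which stabilises the alternative convertase and is made mainly by leukocytes, and it differed by -0.045 (SE 0.10). Of 12 Kupffer cell and macrophage markers 8 varied, 7 lower and 1 higher, and the log2 of their summed values was 11.57 to 12.03 in 10C and 11.38 to 11.87 in 6C+4CP. Their part in the Cfp value was not tested, and in whole tissue fewer cells of a type and less RNA per cell cannot be told apart. Cfi, the protease that inactivates C3b and C4b, held a shared value of 12.45.

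**Figure D2:**
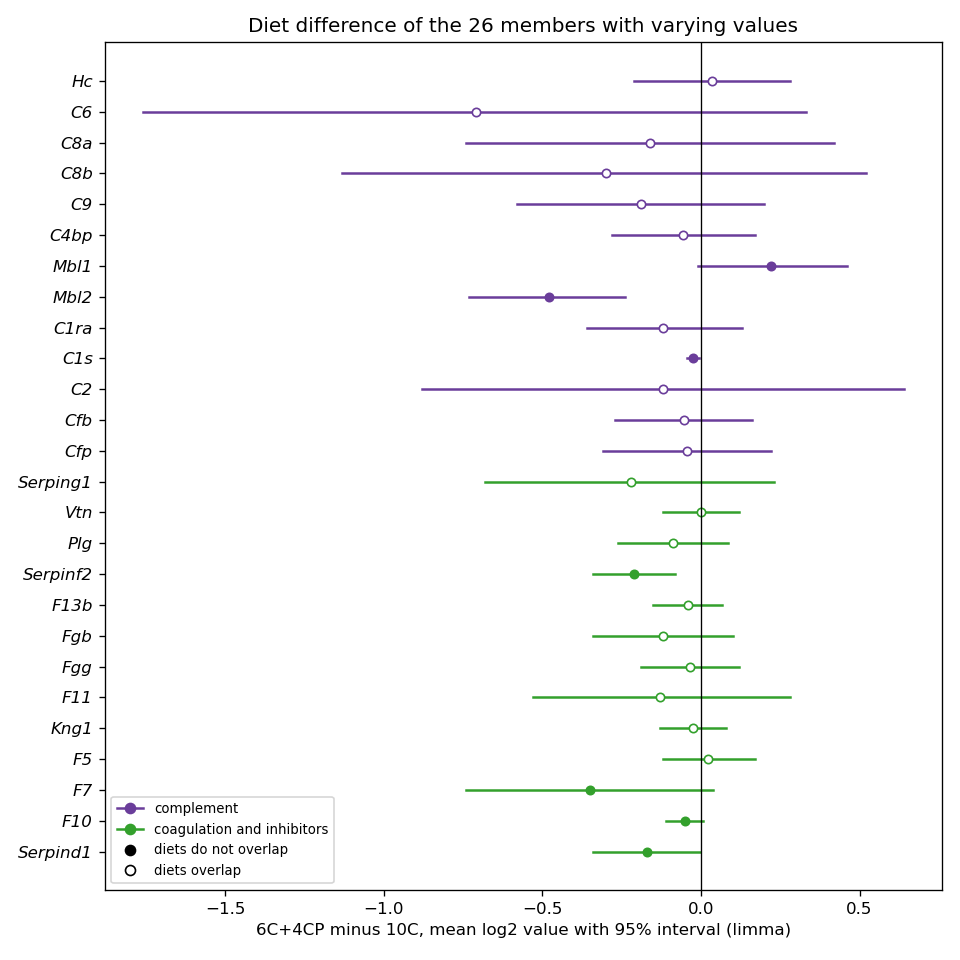
Difference between diets (6C+4CP minus 10C, mean log2 value) with its 95% interval from limma for the 26 members with varying values, complement in purple above and coagulation and inhibitors in green below. Filled points mark the 7 members without overlap between the diets; most points lie left of 0, and most intervals of terminal components and C2 are wider than those of coagulation genes.

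Among the clotting factors F7 and F10 were lower without overlap. F7, the protease that tissue factor activates at the start of clotting (1419321_at), read 9.66, 9.69 and 10.05 in 10C and 9.40, 9.59 and 9.34 in 6C+4CP. The lowest 10C mouse was just above the highest 6C+4CP mouse, and 10C replicate 3 stood higher than the rest. The means were 9.80 ± 0.21 (SD, n = 3) and 9.45 ± 0.13, a difference of -0.35 (95% interval -0.74 to 0.038) or 1.28 times lower, with a limma adjusted p of 0.704. Without 10C replicate 3 the difference was -0.23. F10, the protease that forms thrombin (1449305_at), read 11.085, 11.111 and 11.088 in 10C and 11.076, 11.009 and 11.046 in 6C+4CP. That gap was small, with a difference of -0.051 (SE 0.021) that was -0.017 after quantile normalization, where the diets overlapped. Its other 2 probe sets held shared values. F5, the cofactor of F10, differed by 0.021 (95% interval -0.12 to 0.17), and by -0.011 on its other probe set. F2, prothrombin, and F9, the factor lacking in haemophilia B, held shared values of 12.71 and 10.70. F11 of the contact system differed by -0.13 (SE 0.15) and Kng1, kininogen, by -0.025 (SE 0.039), or -0.15 on its other probe set. F12 and Klkb1, the contact factor and prekallikrein, held shared values.

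Fibrinogen genes lie next to each other in the genome, and none of their chains lay apart between the diets. Fgb, the beta chain, read 13.21, 13.29 and 13.07 in 10C and 13.13, 12.97 and 13.11 in 6C+4CP, which overlapped. Its difference was -0.12 (95% interval -0.34 to 0.10), and it was -0.070 after quantile normalization. Leaving out 10C replicate 2 gave -0.068, and leaving out 6C+4CP replicate 2 gave -0.072. Fgg, the gamma chain, differed by -0.035 (95% interval -0.19 to 0.12). Fga, the alpha chain, held a shared value of 13.10. F13b, the carrier subunit of the factor that crosslinks fibrin, read 10.85, 10.92 and 10.94 in 10C and 10.85, 10.82 and 10.92 in 6C+4CP, and differed by -0.040 (SE 0.039), from -0.067 without 6C+4CP replicate 3 to -0.017 without 6C+4CP replicate 2.

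Among the anticoagulants and the fibrinolysis genes, Serpind1 and Serpinf2 were lower in 6C+4CP without overlap, and neither passed the test. Serpinf2, the plasmin inhibitor antiplasmin (1417498_at), read 10.55, 10.54 and 10.56 in 10C and 10.34, 10.42 and 10.25 in 6C+4CP. The 10C mice lay close together (SD 0.012), and every 6C+4CP mouse was lower. The difference was -0.21 (95% interval -0.34 to -0.081) or 1.16 times lower (limma adjusted p = 0.572, or 0.178 among varying probe sets). Serpind1, heparin cofactor, which inhibits thrombin (1418680_at), read 11.39, 11.26 and 11.31 in 10C and 11.12, 11.07 and 11.25 in 6C+4CP. These values lay close, with 6C+4CP replicate 3 just under the lowest 10C mouse, and the difference was -0.17 (SE 0.061). Plg, the precursor of plasmin, read 12.77, 12.86 and 12.91 in 10C and 12.68, 12.85 and 12.75 in 6C+4CP, and differed by -0.087 (SE 0.063), from -0.13 without 10C replicate 1 to -0.046 without 6C+4CP replicate 1. Proc, Pros1 and Serpinc1, the genes of protein C, protein S and antithrombin, held shared values.

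The inhibitors that act on complement from outside its cascade overlapped between the diets. Serping1, the C1 inhibitor, which also blocks kallikrein, read 11.90, 12.04 and 12.38 in 10C and 11.73, 12.06 and 11.86 in 6C+4CP. The difference of -0.22 (SE 0.17) was -0.088 without 10C replicate 3, the highest mouse. Vtn, vitronectin, which binds and blocks the terminal complex, differed by 0.00099 (95% interval -0.12 to 0.12), and by -0.00046 on its other probe set. Clu, clusterin, another inhibitor of that complex, had its brightest probe set at a shared 13.03, while its 3 varying probe sets differed by -0.19, -0.087 and -0.015.

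Complement and coagulation genes were alike in direction and differed in median spread, which was uneven within complement. On each side 11 of 13 varying members were lower in 6C+4CP. The median difference was -0.12 for complement and -0.087 for coagulation and inhibitors, against -0.0051 over all varying genes. Leaving out 10C replicate 3 gave a complement median of -0.067, leaving out 6C+4CP replicate 3 gave -0.073, and the coagulation median was -0.049 without 10C replicate 2. The median range over the 6 mice was 0.44 for complement and 0.23 for coagulation and inhibitors, against 0.37 over all varying genes. Within complement it was 0.61 for the terminal components and 0.54 in the lectin pathway, but 0.29 in the classical and 0.28 in the alternative pathway. Complement members deviated from their 6-mouse means by medians of -0.11, 0.11 and 0.16 in 10C and -0.037, -0.0046 and -0.078 in 6C+4CP. For coagulation and inhibitors the medians were 0.030, 0.056 and 0.035 in 10C and -0.028, -0.038 and -0.023 in 6C+4CP. Centring on the 6-mouse mean puts the diet means of any gene on opposite sides of 0. Single genes did not all keep their mice apart: Fgb read 13.07 in 10C replicate 3, below 6C+4CP replicates 1 and 3 (13.13 and 13.11). These medians describe the members and were not tested, and the difference between both sides was not tested either.

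**Figure D3:**
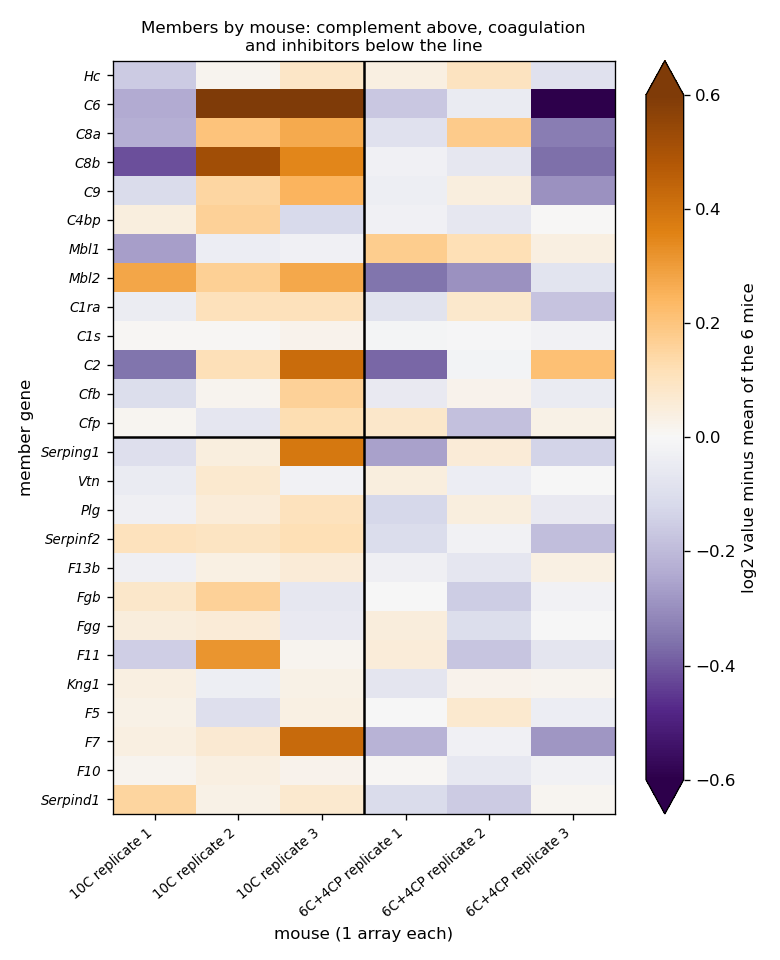
Deviation of each mouse from the mean of the 6 mice (log2, colour scale from -0.6 to 0.6, with values beyond it drawn in the end colours) for the 26 varying members, complement above the horizontal line and coagulation and inhibitors below it. Columns are single mice, with 10C left of the vertical line; C6, C8a, C8b and C9 are low in 10C replicate 1 and in 6C+4CP replicate 3, and Mbl2 and Serpinf2 are above their mean in every 10C mouse.

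Further genes of these pathways were read from lists of complement, coagulation, vitamin K and secretion, and liver regulator genes. Limma called 0 of them, against 0.242% of all probe sets. Of 20 other complement genes measured 10 varied, 4 higher and 6 lower. Carboxypeptidase N, which trims the inflammatory peptides that complement releases, had its subunits on opposite sides. Its catalytic subunit Cpn1 read 10.05, 10.36 and 10.39 in 10C and 10.42, 10.51 and 10.54 in 6C+4CP (difference 0.22, SE 0.11). Its regulatory subunit Cpn2 read 10.56, 10.66 and 10.93 in 10C and 10.17, 10.49 and 10.16 in 6C+4CP (difference -0.44, SE 0.15). Neither overlapped between the diets, and of the 10 varying genes they were the 1 higher and the 1 lower without overlap. Among all varying genes 11.8% were higher and 9.52% lower without overlap. Colec11, a collectin of the lectin pathway, differed by 0.26 (SE 0.11) and C1qc, a chain of C1q made by macrophages, by -0.21 (SE 0.20). Of 22 other coagulation genes 7 varied, 2 higher and 5 lower, all with overlap. Serpina10, an inhibitor of F10, differed by -0.32 (SE 0.15), Hrg, a plasma protein that binds heparin and plasminogen, by -0.27 (SE 0.15), Hgfac by -0.041 (SE 0.022) and Itih2 by 0.050 (SE 0.038).

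Of 8 genes of the vitamin K cycle and factor secretion 5 varied, 2 higher and 3 lower. Lman1 and Mcfd2, partners in the receptor that carries F5 and F8 out of the endoplasmic reticulum, were the 2 lower in 6C+4CP without overlap (9.52% of all varying genes were). Mcfd2 read 10.95, 11.17 and 10.94 in 10C and 10.68, 10.81 and 10.83 in 6C+4CP (difference -0.25, SE 0.085), and Lman1 differed by -0.21 (SE 0.079). Pcsk6 differed by 0.15 (SE 0.071) and Vkorc1l1 by -0.088 (SE 0.16). Among 14 regulator genes 13 varied, 8 higher and 5 lower. Hnf4a, a nuclear receptor that drives many hepatocyte secretory genes, was the 1 of these 13 that was higher without overlap (11.8% of all varying genes were), reading 11.22, 10.80 and 11.13 in 10C and 11.49, 11.41 and 11.45 in 6C+4CP (difference 0.40, SE 0.13; limma adjusted p = 0.704). Onecut1 differed by -0.90 (SE 0.66), Nr1h4 by -0.20 (SE 0.16) and Foxa1 by 0.18 (SE 0.15).

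Acute phase genes were read beside the members because several members belong to that response. Of 18 measured 16 varied, 5 higher and 11 lower, with a median of -0.055. Limma called 0, against 0.242% of all probe sets. Saa1, serum amyloid A, read 14.03 in 10C replicate 2 and 7.54 to 9.13 in the other mice. That mouse also stood apart in Saa2 (11.52, others 6.60 to 7.31), Lcn2 (7.335, others 6.085 to 6.776) and Hamp (8.22, others 10.91 to 11.84). In Saa4, Crp and Hpx it lay within the range of the others. The widest differences of the list were those of Saa1 (-2.0, SE 1.97), Saa2 (-1.5, SE 1.56) and Hamp (1.33, SE 0.98). Orm2 differed by 0.63 (SE 0.26), Saa4 by -0.39 (SE 0.22), Itih3 by -0.13 (SE 0.070) and Cp by 0.032 (SE 0.010). For Cp the unadjusted limma p was 0.0375, and 0.345 in the fit to varying probe sets. With all mice the members were 22 lower and 4 higher, and without 10C replicate 2 they were 21 and 5. Leaving out other single mice gave from 20 lower and 6 higher (10C replicate 3) to 24 and 2 (10C replicate 1). Whether the acute phase values bear on the members was not tested. Of 6 hepatocyte markers 5 varied, 2 higher and 3 lower. Without overlap, Apoa1 and Ahsg differed by -0.11 (SE 0.024) and -0.074 (SE 0.023), and Ttr by 0.032 (SE 0.012), all secreted plasma proteins. Over all varying genes 9.52% were lower and 11.8% higher without overlap. The log2 of the summed hepatocyte markers was 16.05 to 16.07 in 10C and 15.99 to 16.08 in 6C+4CP. Markers of endothelium, cholangiocytes, T or NK cells, neutrophils and platelets all held shared values. Of stellate cell, B cell, adipocyte and erythroid markers 4, 1, 1 and 1 varied, including Dcn by -0.056 (SE 0.067), Col3a1 by 0.14 (SE 0.21), Ighm by -0.66 (SE 0.17), Cidec by 0.20 (SE 0.058) and Alas2 by 0.13 (SE 0.054). Their part in the member values was not tested, and Cd5l and Lyz2 of the macrophage list differed by -0.28 (SE 0.19) and -0.28 (SE 0.16).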

How the data were processed

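Liver RNA (100 ng per array) of 3 mice per diet was hybridised to 1 Affymetrix array each, and samples were grouped by their titles. The log2 values used are the processed values deposited by the authors, 1 column per array. R 2.7.2 is named in the submitters' processing notes. The background correction, the summarisation and the log base were not given in the sources used here. No depth or detection call comes with them, so precision rests on the number of arrays. No batch is given in the labels. Of 45101 probe sets 64 array controls were left out. GEO's platform annotation gave 1 symbol for 34945, several for 932 and none for 9160.

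The test between diets was limma's (version 3.58.1, R 4.3.3; lmFit and eBayes without trend or covariates) over all 45037 probe sets, calling a Benjamini-Hochberg adjusted p under 0.05. The script was tested on simulated data. Members, lists and rules were chosen with earlier results of these data known. On each side the members without overlap and then those of smallest p, up to 8, are given mouse by mouse. Up to 4 genes are given per pathway list and 2 per cell type list. Saa1, Saa2, Lcn2, Hamp, Crp, Hpx and Ttr were chosen after their values were seen. Alternatives were a replicate block, each array left out in turn, quantile normalization, median centring, varying or brighter probe sets only, intensity trend with robust estimation, a gene's mean over varying probe sets, a range over 0.05 and an adjusted p under 0.1.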

Additional observations from a re-analysis of the deposited data

How the results depend on the processing

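Under 13 alternatives none of the 16 differences of members given mouse by mouse changed sign or passed the threshold, with limma adjusted p from 0.117 to 1.0. The count of member probe sets called stayed at 0 under every alternative run. The count of all probe sets called (109) was 3 with the replicate block, 1 after quantile normalization, and 0 by limma after median centring, among varying probe sets, among brighter probe sets and with intensity trend and robust estimation (1202, 1140, 1842 and 2685 at an unadjusted p under 0.05), and ran from 285 to 398 without single arrays. Same-numbered mice deviated from their diet means with correlations of 0.478, -0.0893 and 0.0847 over varying probe sets, so the numbers were not taken as pairs, and mice did not all correlate best with their own number.

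Members lower without overlap (6) numbered 6 to 12 without single arrays and 4 after quantile normalization, and those higher without overlap stayed at 1. Over all varying genes the shares without overlap also rose when an array was left out. Those lower went from 9.52% to between 12.2% and 21.9%, and those higher from 11.8% to between 15.1% and 18.2%. Without 10C replicate 3, 34.6% of members were lower without overlap, against 21.9% of all varying genes. The complement median (-0.12) ran from -0.17 to -0.067 without single arrays, and the coagulation median (-0.087) from -0.11 to -0.049, and was -0.070 after quantile normalization; the cause was not tested. Signal over background is not given with the values, and the values shared by all mice hide any difference in 12 of 39 members.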
